A study of Mus musculus with 2 samples.

Results

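Mouse embryonic stem (ES) cells express the epithelial keratins Krt8 and Krt18 only at low levels, and single-cell RNA-seq of a wild-type and a Lin28a knockout clone was used to describe the cells in which these genes were most frequent. The members were selected on measured values: within each library they are the 5% of ES cells with the highest share of unique molecular identifiers (UMIs, each standing for 1 captured RNA molecule) in the sum of Krt8, Krt18, S100a6 and Anxa2. Of 10389 barcodes in all, 2141 passed as ES cells, and 107 of these were members. There were 68 members among 1362 wild-type cells and 39 among 779 knockout cells. The remaining 1294 and 740 cells are called the reference. A barcode passed with at least 2000 UMIs, a mitochondrial share of 0.5% to 20%, a ribosomal protein gene share of at least 5% and a summed share of Col1a1, Col1a2 and Col3a1 under 0.3%, a limit set against feeder fibroblasts.

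Both libraries were made on the inDrop droplet platform from E14 mouse ES cells, derived from the inner cell mass and carried with LIF/2i medium on gelatin over mouse embryonic fibroblast (MEF) feeders for 2 days. The wild-type cells were a transfected control clone without treatment, and the knockout cells were 1 clone in which Lin28a had been disrupted by CRISPR/CAS9. Lin28a encodes an RNA-binding protein of early embryos that blocks the maturation of let-7 microRNAs. Each genotype is 1 library of 1 clone, so clone, library and genotype cannot be told apart, and no test between genotypes was possible. All intervals below are 95% intervals from the numbers of UMIs or cells and cover counting error only. Over the cells that passed, Lin28a stood at 120 CPM (counts per 1000000 UMIs; 1097 UMIs) in wild-type cells and 42.4 CPM (289 UMIs) in cells of the library labelled knockout, a ratio of 0.354 (interval 0.310 to 0.404). In the members it was 96.9 CPM (35 UMIs) and 24.8 CPM (7 UMIs).

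Krt8 and Krt18 are the type II and type I partners that pair to form the keratin filaments of simple epithelia, and in the mouse embryo they mark the trophectoderm. S100a6 is a small calcium-binding protein of adherent cells, and Anxa2 is a calcium-dependent membrane-binding protein that forms a complex with S100a10. Fibroblasts such as the feeders make much S100a6 and Anxa2 and lack the simple epithelial keratins. ES cells are recognised by Pou5f1, Sox2, Nanog and their partners, which hold the cells in the pluripotent state.

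The values on which the members were selected were small. In wild-type cells, Krt8 stood at 10.1 CPM (93 UMIs), S100a6 at 6.22 CPM (57 UMIs), Anxa2 at 4.47 CPM (41 UMIs) and Krt18 at 1.2 CPM (11 UMIs). A UMI of any of the 4 genes was found in 174 of 1362 wild-type cells (12.8%, exact interval 11.1 to 14.7) and in 118 of 779 knockout cells (15.1%, 12.7 to 17.9). Among the 68 wild-type members, 48 held 1 such UMI, 16 held 2, 2 held 3, and the top pair held 4 and 5. Among the 39 knockout members, 23 held 1 UMI, 11 held 2 and 1 held 3, and the last 4 cells held 15, 24, 26 and 48. Those 4 cells carried 113 of the 161 UMIs of knockout members, and results are given with and without them. They were set apart by a count of more than 10 UMIs, a limit chosen after the values were seen.

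The share at the cut did not separate members from reference. The lowest wild-type member had 0.01733% of its UMIs in the 4 genes and the highest reference cell had 0.01725%. In the knockout the values were 0.01353% and 0.01338%. The median member stood at 0.0222% in wild-type and 0.0197% in knockout cells, and the highest at 0.0747% and 1.45%. A cell with 1 UMI was a member if it held up to 5770 UMIs in wild-type and up to 7275 UMIs in knockout, and fell into the reference if it was deeper. Members were accordingly shallower, with a median of 5075 UMIs against 6432 in wild-type and 6123 against 8174 in knockout. Members made up 9.17% of the wild-type cells with 2000 to 5000 UMIs, 3.80% of those with 5000 to 10000 and 1.5% of those with more. The matching shares in the knockout were 8.84%, 4.66% and 3.37%. The share of cells with any UMI of the 4 genes ran the other way, from 9.17% to 13.1% and 20.3% in wild-type and from 8.84% to 10.7% and 24.7% in knockout. The plot of share by depth shows the members as the left ends of the lines for 1, 2 and 3 UMIs, with the 4 knockout cells lying above them.

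**Figure D1:**
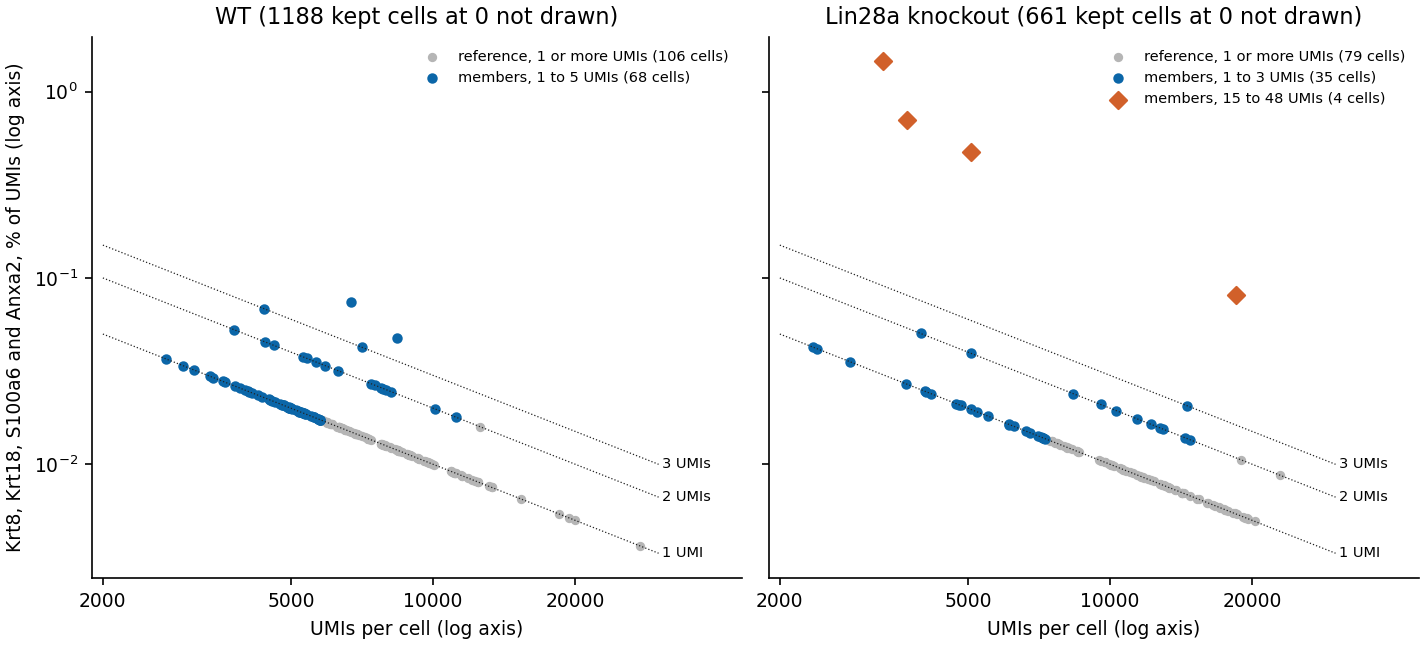
Share of UMIs from Krt8, Krt18, S100a6 and Anxa2 (percent, log axis) against UMIs per cell (log axis) for cells with at least 1 such UMI, in the wild-type (WT, left) and Lin28a knockout (right) library; dotted lines mark 1, 2 and 3 UMIs. The members (blue) lie on the lines just above the cut, and 4 knockout members (orange) with 15 to 48 UMIs stand apart.

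The label of cells rich in Krt8 and Krt18 is not borne out by the counts. Only 36 of 68 wild-type members and 21 of 39 knockout members held any keratin UMI, and the other 32 and 18 were members through S100a6 or Anxa2 alone. Krt18 gave 3 UMIs in all wild-type members and 1 in all knockout members. Krt8 and Krt18 were found together in 1 wild-type member and in no knockout member. No member held all 4 genes, and 56 of 68 and 31 of 39 held a single gene of the 4. The members are therefore referred to as cells chosen on the 4-gene share.

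Whether the 4 genes occurred in the same cells was asked by leaving each gene out of the choice in turn. Cells were chosen as the top 5% on the other 3 genes, and the left-out gene, which played no part in that choice, was then measured. In wild-type cells Krt8 stood at 26.8 CPM in the cells so chosen (11 UMIs in 8 of 68 cells) and at 9.37 CPM in the rest (82 UMIs), a ratio of 2.86 (interval 1.37 to 5.39). Anxa2 had a ratio of 3.30 (1.01 to 8.43; 5 UMIs), S100a6 of 2.82 (0.989 to 6.57; 6 UMIs) and Krt18 of 2.42 (0.0558 to 17.0; 1 UMI). All 4 wild-type ratios lay above 1, and the intervals of Krt8 and Anxa2 did not include 1. Neither held with the top 10% of cells, where Krt8 had 1.55 (0.884 to 2.59), Anxa2 2.10 (0.837 to 4.63) and Krt18 0.937, while S100a6 had 2.20 with an interval clear of 1 (1.09 to 4.15). Among cells of at least 5000 UMIs the interval of Anxa2 also included 1 (2.54, 0.494 to 8.22). Counted by cells, Krt8 was found in 11.8% of the chosen cells and 6.11% of the rest. The shares were 7.35% and 2.63% for Anxa2, 5.88% and 3.63% for S100a6, and 1.47% and 0.773% for Krt18. The intervals treat several UMIs of 1 cell as independent, and no wild-type ratio was measured without the cells of 4 and 5 UMIs. The UMIs behind the ratios were 1 to 11 a gene, and the choices share cells, so the ratios are not 4 independent results.

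The same measurement in the knockout library split by gene pair. S100a6 reached 342 CPM in the chosen cells (93 UMIs) against 5.35 CPM in the rest, a ratio of 64.0 (43.0 to 97.3), and Anxa2 had a ratio of 24.2 (12.2 to 47.8; 20 UMIs). Krt8 had a ratio of 0.849 (0.171 to 2.59; 3 UMIs) and Krt18 gave 0 UMIs in the chosen cells, which allows a ratio of up to 35.0. Without the 4 cells, S100a6 gave 1 UMI (ratio 0.693, 0.0171 to 4.13), Anxa2 gave 0 UMIs (up to 4.85) and Krt8 had a ratio of 0.800 (0.161 to 2.44). The knockout ratios of S100a6 and Anxa2 thus rested on those 4 cells. The limit that set the cells apart counted UMIs of all 4 genes, the left-out gene among them. A fall of these ratios was therefore built into the exclusion, and it only shows where the UMIs lay. The difference between the wild-type ratio of Krt8 and that of the knockout was not tested.

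**Figure D2:**
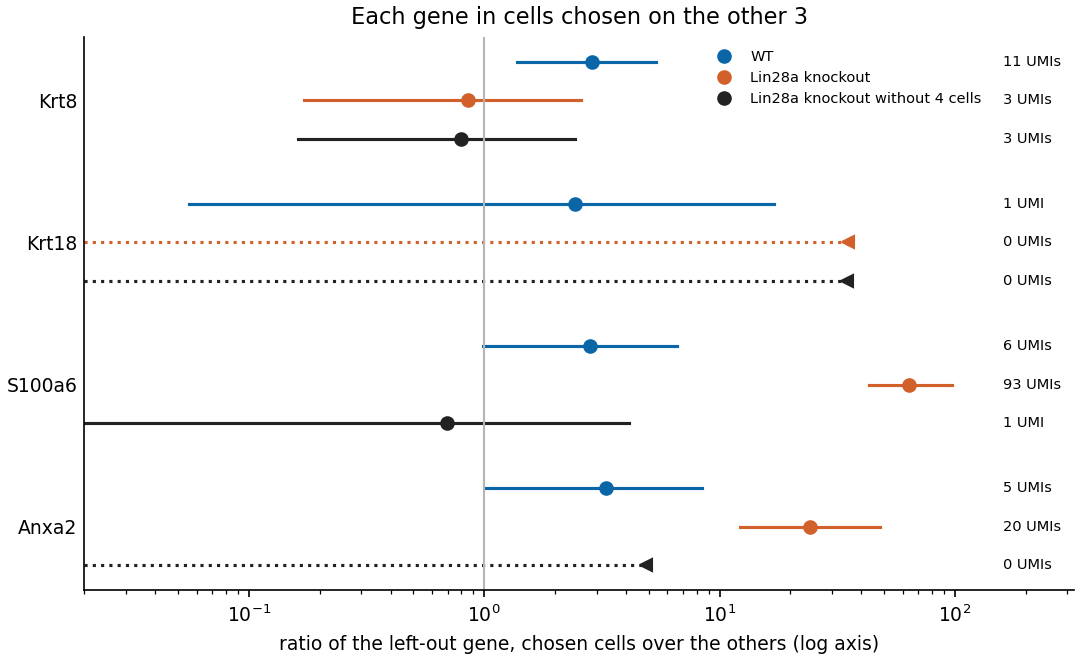
Ratio of each gene's CPM in cells chosen on the other 3 genes over that in the remaining cells (log axis), with 95% exact intervals from counts and the UMIs in the chosen cells at the right; blue is wild-type, orange the Lin28a knockout and black the knockout without the 4 cells of more than 10 UMIs. Arrows mark the upper limit where no UMI was found, and the 2 large knockout ratios (64.0 and 24.2) are absent without the 4 cells.

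Keratins and the calcium-binding pair were also set against each other. In wild-type cells chosen on Krt8 and Krt18 alone, S100a6 with Anxa2 stood at 29.4 CPM (12 UMIs) against 9.82 CPM elsewhere, a ratio of 2.99 (1.49 to 5.49). In those chosen on S100a6 and Anxa2, the keratins stood at 30.1 CPM (13 UMIs) against 10.4 CPM, a ratio of 2.89 (1.48 to 5.19). Neither ratio was measured without the wild-type cells of 4 and 5 UMIs. Without the 4 cells the knockout ratios were 0.784 (0.0925 to 2.98; 2 UMIs) and 0.740 (0.149 to 2.25; 3 UMIs). With them, the ratio of S100a6 and Anxa2 in keratin-chosen cells was 0.248 (0.0298 to 0.911), since all 113 UMIs of the 4 cells then fell in the rest. Across the 1362 wild-type cells, Pearson's r of the shares of any gene pair was at most 0.0709, and the pairs were found together in 0 to 5 cells each. Across the 779 knockout cells S100a6 and Anxa2 had r = 0.936, and r = -0.0236 over the 775 cells left without the 4. In such sparse counts these weak correlations are no finding, and they share library and depth.

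The wild-type members with the most UMIs of the 4 genes looked like the other ES cells. The cell with 5 such UMIs held 2 of Krt8 and 3 of S100a6, and the cell with 4 held 2 of Krt8, 1 of Krt18 and 1 of Anxa2. The share of 8 ES cell markers (Pou5f1, Sox2, Nanog, Zfp42, Esrrb, Dppa5a, Utf1 and Sall4) was 0.583% and 0.346% in these cells. The reference cells spanned 0.107% to 0.794% with a median of 0.364%. Their share of 28 feeder fibroblast genes was 0.0149% and 0.0596%, against a reference median of 0.0565%. These members had ES marker and feeder gene shares within the range of the reference.

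The 4 knockout cells with many UMIs were of another kind. They held 42, 21, 19 and 11 UMIs of S100a6 and 6, 5, 5 and 4 of Anxa2, with 0 of Krt8 and 0 of Krt18 in each. Over the 4 cells together, 0 UMIs still allow up to 121 CPM of either keratin. The 8 ES markers summed to 1, 0, 0 and 3 UMIs out of 3305, 3710, 5069 and 18430, a share of at most 0.0303%. In the other 35 knockout members that share ran from 0.199% to 0.720%. The 28 feeder genes took 0.454% to 0.868% of UMIs in the 4 cells, and at most 0.183% in any knockout reference cell. Sparc, a secreted matrix protein, gave 35, 37, 16 and 65 UMIs, and Vim, the intermediate filament protein of mesenchymal cells, gave 12, 19, 14 and 27. Acta2, the smooth muscle actin of contractile fibroblasts, gave 20, 0, 56 and 1. Another set of 10 feeder markers was Col1a1, Col1a2, Col3a1, Col5a2, Col6a1, Fn1, Postn, Thy1, Lum and Dcn. It includes the collagens of the rule, and 2 of the 10 were at 0 over the 4 cells. The 3 collagens of the rule summed to 2, 1, 6 and 45 UMIs, a share below the 0.3% limit in each. Of 7 primitive endoderm markers (Gata4, Gata6, Sox17, Sox7, Dab2, Pdgfra and Foxa2), 6 were at 0 over the 4 cells. The set held 1 UMI there (32.9 CPM, against 13.6 CPM in the knockout reference), too few to compare. In wild-type members, the 10 feeder markers had a summed ratio of 0.968 (0.819 to 1.14) and 7 of them were at 0. In knockout members that ratio was 1.65 (1.42 to 1.91), and 1.01 (0.828 to 1.23) without the 4 cells. The 4 cells had few ES marker UMIs and do not bear the label of ES cells.

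**Figure D3:**
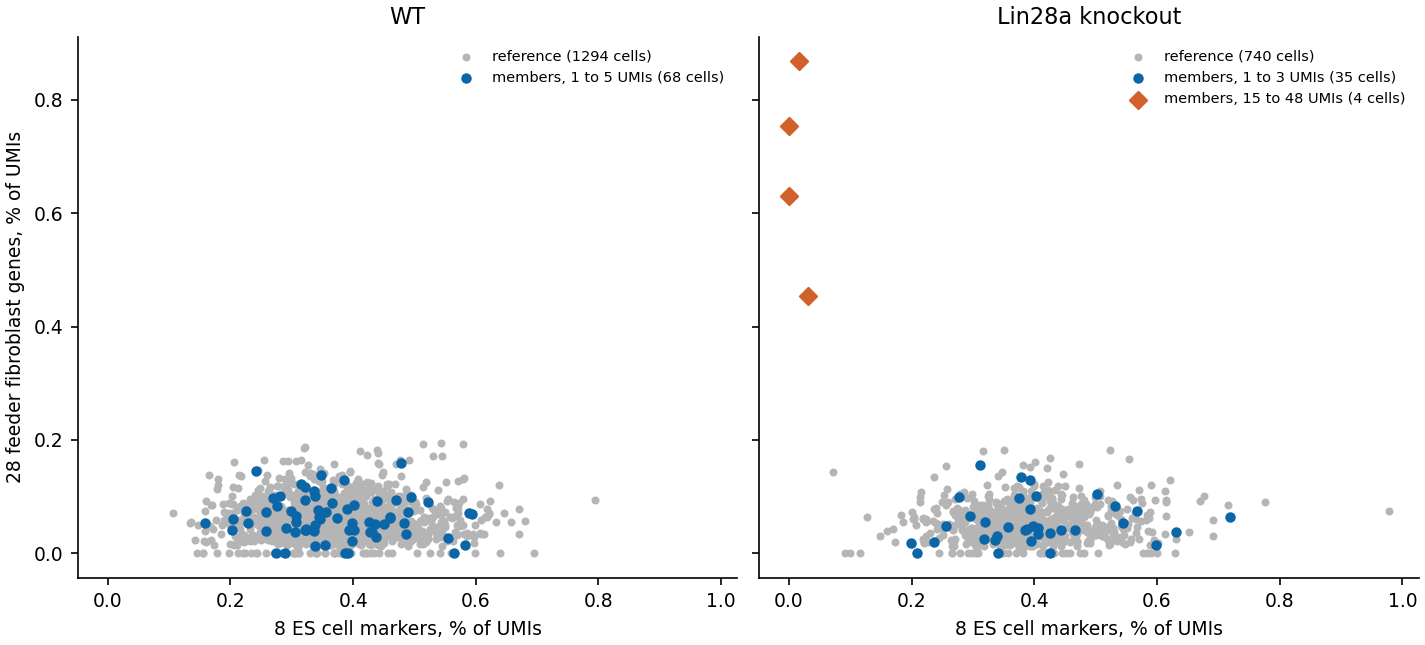
Share of UMIs from 28 feeder fibroblast genes against that from 8 ES cell markers (both percent of UMIs) for every cell that passed, wild-type (WT, left) and Lin28a knockout (right). The members with few UMIs (blue) lie among the reference cells (grey), and the 4 knockout members with 15 to 48 UMIs (orange) lie at the upper left, at 0.454% to 0.868% feeder genes and at most 0.0303% ES markers.

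Cells left out of the choice for their collagen show what the gene pair does in feeders. The 48 wild-type and 23 knockout barcodes with at least 500 UMIs and a collagen share of 0.3% or more held S100a6 at 3054 and 3735 CPM and Anxa2 at 840 and 908 CPM. Krt8 and Krt18 gave 0 UMIs in either set, which allows up to 8.58 CPM of each in wild-type and 32.2 CPM in knockout. The knockout limit lies above the 10.4 CPM of Krt8 in the knockout cells that passed. S100a6 outnumbered Anxa2 3.64 to 1 and 4.12 to 1 there. In the 4 knockout cells the figure was 4.65 to 1, from 42 against 6 UMIs in 1 cell to 11 against 4 in another. It was drawn from the same UMIs that set these cells apart, so it is no separate support for a likeness. In the ES cells without the 4, the figure was 1.39 to 1 in wild-type and 1.84 to 1 in knockout. Droplets also take up free RNA from other cells. Col1a1 in the reference stood at 0.141% of its level in collagen-rich cells in wild-type and 0.115% in knockout. Col1a1 is a gene of the collagen limit that parted these sets, so its percentage was lowered by the choice. It is no like measure for S100a6 and Anxa2. With the 4 knockout cells left out, S100a6 in the cells that passed stood at 0.204% and 0.138% of its collagen-rich level, and Anxa2 at 0.533% and 0.309%. The knockout levels behind these were 5.16 and 2.80 CPM, and with the 4 cells they were 18.8 and 5.72 CPM. The part of free feeder RNA in the S100a6 and Anxa2 UMIs of single members was not tested.

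The comparison of genotypes also hung on the 4 cells, which were set apart by UMIs of these same genes. Only the knockout had such cells, so a fall of its level without them was built into the exclusion. The values without them only show where the UMIs lay. Over all cells that passed, the 4 genes together stood at 22.0 CPM (202 UMIs) in wild-type and 35.5 CPM (242 UMIs) in knockout, a ratio of 1.61 (1.33 to 1.95). Without the 4 cells the knockout level was 19.0 CPM (129 UMIs) and the ratio 0.863 (0.686 to 1.08). S100a6 went from a ratio of 3.02 (2.19 to 4.20) to 0.830 (0.528 to 1.29), and Anxa2 from 1.28 (0.804 to 2.03) to 0.626 (0.343 to 1.10). Krt8 stood at 10.1 and 10.4 CPM, a ratio of 1.03 (0.743 to 1.41). The 4 cells held 0 UMIs of Krt8, so leaving them out could not lower it. Krt18 had 11 and 4 UMIs, a ratio of 0.489 (0.114 to 1.65). With 1 library per genotype, none of these ratios has a replicate check.

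The genes of the rule lie at 3 loci on the GRCm38 build. Krt8 (ENSMUSG00000049382.10) spans chr15:101996698-102004482 on the minus strand and Krt18 (ENSMUSG00000023043.7) lies beside it at chr15:102028180-102032027 on the plus strand. S100a6 (ENSMUSG00000001025.8) spans chr3:90612882-90624181 and Anxa2 (ENSMUSG00000032231.14) chr9:69453620-69491795, both on the plus strand. None of the 4 had a UMI that the authors' counting marked as ambiguous. The sequence before the starts of S100a6 and Anxa2 is shown because this pair, and not the keratins, was found at high counts together. The runs below come from RefSeq (GRCm38.p6), are written 5′ to 3′ on the plus strand at chr3:90612644-90612881 and chr9:69453433-69453619, and end before both the RefSeq and the GENCODE start. Capitals mark matches of the motifs searched.
S100a6: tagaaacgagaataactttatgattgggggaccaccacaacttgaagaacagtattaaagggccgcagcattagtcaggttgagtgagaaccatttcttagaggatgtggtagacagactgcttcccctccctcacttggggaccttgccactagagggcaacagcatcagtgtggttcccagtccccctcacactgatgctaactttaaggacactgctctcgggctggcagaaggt
Anxa2: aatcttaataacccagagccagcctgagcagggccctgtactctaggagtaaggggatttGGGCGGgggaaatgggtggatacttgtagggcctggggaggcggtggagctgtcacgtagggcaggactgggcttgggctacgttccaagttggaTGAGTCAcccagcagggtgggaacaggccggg

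The 250 bases before each RefSeq start were searched on both strands for 5 short motifs, the AP-1 motif TGANTCA, the TEAD motif GGAATG, the GC box GGGCGG, the E-box CACGTG and the CArG box. Anxa2 held 1 AP-1 match, which begins 95 bases before the start, and 3 GC boxes, at 190, 48 and 24 bases. The 48 and 24 base matches lie past the end of the run shown. Krt8, Krt18 and S100a6 held no match of any of the 5 motifs. Of 32851 promoters, 6.75% held the AP-1 motif, 12.6% the TEAD motif, 32.7% the GC box, 6.02% the E-box and 1.47% the CArG box. These matches describe the letters only.

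Genes outside the rule were then compared between members and reference by summed CPM. Of these, 5465 had at least 200 UMIs in the cells of each library, and a gene was called where the members' CPM was at least 1.5 times that of the reference, or at most 1 over 1.5, in both libraries. Only 15 genes were higher in both libraries (0.274% of those compared) and 63 were lower in both (1.15%). Counting each library by itself, those called in both included, 136 genes were higher (2.49%) and 421 lower (7.7%) in wild-type, and in knockout 255 were higher (4.67%) and 561 lower (10.3%). Without the 4 cells the knockout had 180 higher (3.29%) and 562 lower (10.3%), and 9 (0.165%) and 69 (1.26%) genes moved the same way in both libraries. Of the 136 genes higher in wild-type members 11% were also higher in knockout members, and of the 255 higher in knockout members 5.88% were higher in wild-type. The log2 ratios of the libraries had r = 0.0735 across genes, and 0.0524 without the 4 cells, where genes are not independent replicates. The median gene had 26 UMIs in wild-type and 20 in knockout members, so counting error alone is wide here. At 2-fold, 0 genes were higher in both libraries and 5 were lower.

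**Figure D4:**
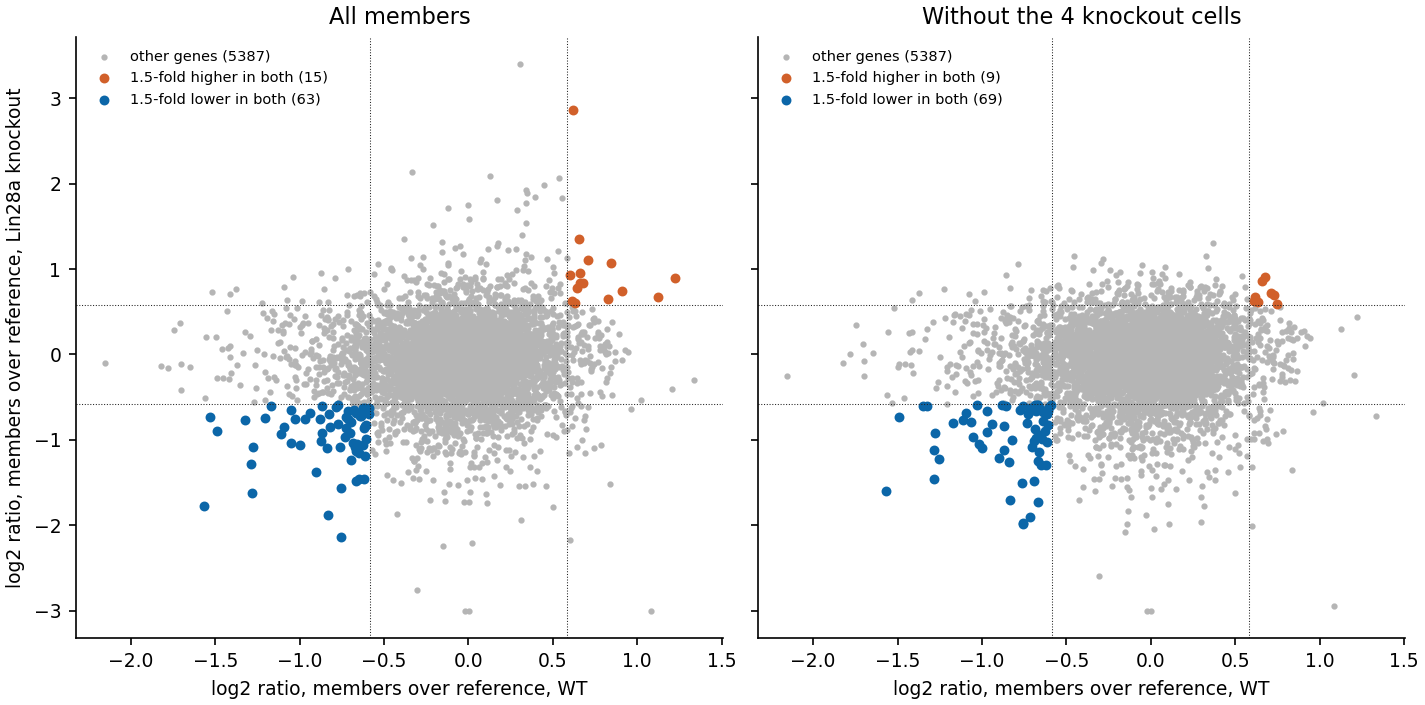
Log2 ratio of CPM, members over reference, in the Lin28a knockout (vertical) against wild-type (horizontal) for 5465 genes, with all members (left) and without the 4 knockout cells (right); values under the axis are drawn at its lower edge and dotted lines mark 1.5-fold. The 15 genes higher in both (orange) become 9 without the 4 cells, and r across genes is 0.0735 and 0.0524.

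The higher genes named here were picked for high ratios among all genes compared, and their intervals do not allow for that choice. The gene with the highest lower ratio was Ccs, the copper chaperone of superoxide dismutase. Ccs stood at 55.4 CPM (20 UMIs) in wild-type members against 23.7 CPM in the reference, a ratio of 2.33 (1.40 to 3.70). In knockout members it stood at 60.3 CPM (17 UMIs) against 32.3 CPM, a ratio of 1.87 (1.07 to 3.06), and without the 4 cells the ratio was 1.35. Among the other 14 were Crip2, Igf2r, Exosc9, Rpl31-ps14, Mia3, Lrpap1, Ttc28, Myo1c, Ppp1r18, Fos, S100a11, Fnta and Aprt. Of all 15, only Exosc9, Rpl31-ps14, Lrpap1, Fnta and Aprt stayed past 1.5-fold in both libraries without the 4 cells. When only cells without a UMI of the 3 collagens were used (4838 genes compared), 0 of the 15 were called. Aprt, which salvages adenine, had the most UMIs of these, with ratios of 1.55 (1.15 to 2.05; 53 UMIs) and 1.52 (1.12 to 2.03; 49 UMIs) and 1.53 without the 4 cells. Exosc9, a subunit of the RNA exosome, had 1.64 (0.985 to 2.57) and 2.15 (1.27 to 3.44). Rpl31-ps14 is a pseudogene and its reads may belong to Rpl31, so its value is uncertain.

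Relatives of the rule's genes were not past 1.5-fold higher in knockout members without the 4 cells. S100a11, a relative of S100a6, stood at 41.5 CPM (15 UMIs) against 27.0 CPM in wild-type, a ratio of 1.54 (0.846 to 2.59). In the knockout it had a ratio of 7.29 (5.30 to 9.89; 56 UMIs), with 46 of its UMIs in the 4 cells, and of 1.46 without them. S100a10, the partner of Anxa2, had 0.690 in wild-type (6 UMIs) and 2.09 in knockout, or 1.12 without the 4 cells. Anxa4 and Anxa7 had ratios of 1.28 and 1.05 in wild-type and 0.866 and 1.05 in knockout. Of the 5 compared members of the annexin and S100 list, 1 was past 1.5-fold higher in wild-type and 3 in knockout, and 0 in knockout without the 4 cells. Over all 5465 genes these shares were 2.49%, 4.67% and 3.29%. Ahnak, a large scaffold protein that binds the complex of Anxa2 and S100a10, had 0.782 in wild-type and 1.53 in knockout, and without the 4 cells it was past 1.5-fold lower at 0.602 (10.3% of all genes were lower there). The whole list of 20 genes, less the rule's, had a summed ratio of 1.08 (0.891 to 1.30) in wild-type and 1.03 (0.810 to 1.30) in knockout without the 4 cells, against 2.44 (2.09 to 2.82) with them.

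The epithelial list, 29 genes of cell junctions and simple epithelia, was the nearest in function to the keratins. Of its 9 compared genes, 2 were past 1.5-fold higher in wild-type members, where 2.49% of all genes were. In knockout members 0 were higher and 1 was lower (4.67% and 10.3% of all genes), and without the 4 cells 1 was higher and 1 lower (3.29% and 10.3%). Its summed ratio was 1.14 (1.02 to 1.27; 351 UMIs) in wild-type, 1.07 (0.951 to 1.2; 306 UMIs) in knockout and 1.14 (1.01 to 1.28) in knockout without the 4 cells. The median ratio of its compared genes was 1.10 in wild-type and 1.12 in knockout, beside 0.986 and 0.965 over all 5465 genes. Elf3, an epithelial transcription factor, had ratios of 1.53 (0.990 to 2.28) and 1.42 (0.832 to 2.29), and of 1.60 in knockout without the 4 cells, past 1.5-fold there. Epcam, an epithelial adhesion molecule of ES cells, had 1.24 and 1.34, or 1.38 without the 4 cells. Spint1, an inhibitor of membrane serine proteases, was at 1.81 (1.25 to 2.53; 36 UMIs) in wild-type and 0.719 (0.423 to 1.15; 18 UMIs) in knockout, or 0.806 without the 4 cells. The trophectoderm list of 22 genes had summed ratios of 1.05 (0.830 to 1.32) and 1.04 (0.792 to 1.35), or 0.994 in knockout without the 4 cells. Its defining markers Cdx2, Eomes, Elf5, Gata3, Tfap2a and Hand1 summed to 12 UMIs in wild-type members and 8 in knockout members, ratios of 0.746 (0.382 to 1.32) and 0.618 (0.264 to 1.23). Cdx2, Elf5 and Hand1 were at 0 in wild-type members, and Elf5 and Hand1 in knockout members.

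As a group, pluripotency genes were near their reference level in the members. The 8 ES markers stood at 3726 CPM in wild-type members against 3702 CPM in the reference, a ratio of 1.01 (0.952 to 1.06), and at 1.02 (0.959 to 1.09) in knockout members without the 4 cells, or 0.915 (0.859 to 0.975) with them. Pou5f1 had ratios of 1.08 (0.964 to 1.21; 323 UMIs) and 0.994 (0.881 to 1.12; 293 UMIs), or 1.11 in knockout without the 4 cells. Nanog had 0.848 (0.684 to 1.04) and 0.708 (0.544 to 0.906), or 0.793 without the 4 cells. Sox2 was at 0.656 (0.467 to 0.898; 40 UMIs) in wild-type and 0.964 (0.612 to 1.45; 24 UMIs) in knockout, or 1.08 without the 4 cells. Fgf4, a differentiation signal made by ES cells, was at 1.67 (1.11 to 2.44) in wild-type and 0.927 in knockout, or 1.04 without the 4 cells. The core pluripotency list of 10 genes had summed ratios of 1.03 (0.971 to 1.10) and 0.979 (0.909 to 1.05) without the 4 cells, and the naive list of 16 genes 1.02 (0.967 to 1.07) and 0.925 (0.870 to 0.983). With the 4 cells these knockout ratios were 0.878 (0.816 to 0.943) and 0.895 (0.844 to 0.949).

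Of the genes lower in both libraries, the lowest 8 by the higher ratio were Usp38, Pfas, Taf4b, Gm20379, Lncenc1, Ctdnep1, Dmxl1 and Nr0b1. Usp38, a ubiquitin protease, had ratios of 0.337 (0.123 to 0.739; 6 UMIs) and 0.293 (0.0600 to 0.867; 3 UMIs). Lncenc1, a long noncoding RNA of naive ES cells, had 0.482 (0.255 to 0.829; 13 UMIs) and 0.486 (0.282 to 0.783; 17 UMIs). Nr0b1 (Dax1), a nuclear receptor of the pluripotency network, had 0.535 (0.283 to 0.922; 13 UMIs) and 0.385 (0.175 to 0.737; 9 UMIs). All 8 stayed below 1 over 1.5 without the 4 cells. They are the extremes of 63 called genes and rest on 3 to 17 UMIs in members.

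In the knockout library, 6 of 24 lists had a summed ratio past 1.5 in either direction, and the 4 cells carried 5 of them. The primitive endoderm list stood at 2.38 (2.11 to 2.67) with the 4 cells and 0.932 (0.764 to 1.13) without them, and 153 of the 215 member UMIs of its gene Sparc lay in the 4 cells. The feeder fibroblast list went from 2.36 (2.12 to 2.62) to 1.01 (0.853 to 1.2). The p53 target list went from 1.89 (1.75 to 2.04) to 1.02 (0.909 to 1.14), and the immediate early list from 1.76 (1.62 to 1.92) to 0.896 (0.790 to 1.01). Cdkn1a, the cell cycle inhibitor under p53, had a ratio of 4.19 (3.60 to 4.86), or 1.35 without the 4 cells, and 1.45 (1.18 to 1.76) in wild-type. Junb, an AP-1 subunit, went from 4.27 (3.22 to 5.57) to 0.662. Lgals1, a lectin of fibroblasts, had 92 of its 105 member UMIs in the 4 cells and went from 10.6 (8.31 to 13.4) to 1.47. The sixth list, 11 primitive streak genes, rested on 9 UMIs (ratio 1.68, 0.751 to 3.30, and 1.88 without the 4 cells). In wild-type, 0 lists were past 1.5-fold in either direction.

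The other lists stayed within 1.5-fold. Between wild-type and knockout without the 4 cells, the summed ratios were 1.02 and 1.03 for the actin cytoskeleton, 1.19 (1.04 to 1.35) and 0.928 for YAP and TEAD targets, 1.24 (1.02 to 1.49) and 0.948 for Nodal and BMP response, 0.882 and 0.845 for ERK feedback, and 0.882 and 0.837 for primed epiblast. They were 1.07 and 0.981 for heat shock, 1.02 and 1.10 for redox and metallothionein genes, 0.998 and 0.977 for the integrated stress response, and 0.989 and 0.989 for glycolysis. S phase genes had 0.980 and 0.951, G2 and mitosis genes 0.929 and 0.954, and nuclear-retained RNA 0.921 and 0.900. The neural list (12 and 20 member UMIs) had 0.889 and 1.16. With the 4 cells, the knockout ratios turned to 1.35 (1.17 to 1.55) for YAP and TEAD targets and 1.31 (1.06 to 1.60) for Nodal and BMP response, and the neural list stood at 1.38 (0.834 to 2.17). The remaining lists were between 0.772 and 1.13 with them. The 21 genes of the 2-cell-like programme, which marks rare ES cells resembling the early embryo, gave 1 UMI in the members of each library, too few to compare. Myof, a membrane repair protein listed as a YAP and TEAD target, had a ratio of 2.52 (1.71 to 3.61; 33 UMIs) in wild-type, against 0.814 (0.368 to 1.57; 9 UMIs) in the knockout and 0.609 without the 4 cells. Ccn1, a matrix protein of the same list, had 1.47 (0.899 to 2.28) in wild-type and 3.56 (2.53 to 4.91) in knockout, or 1.72 without the 4 cells.

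**Figure D5:**
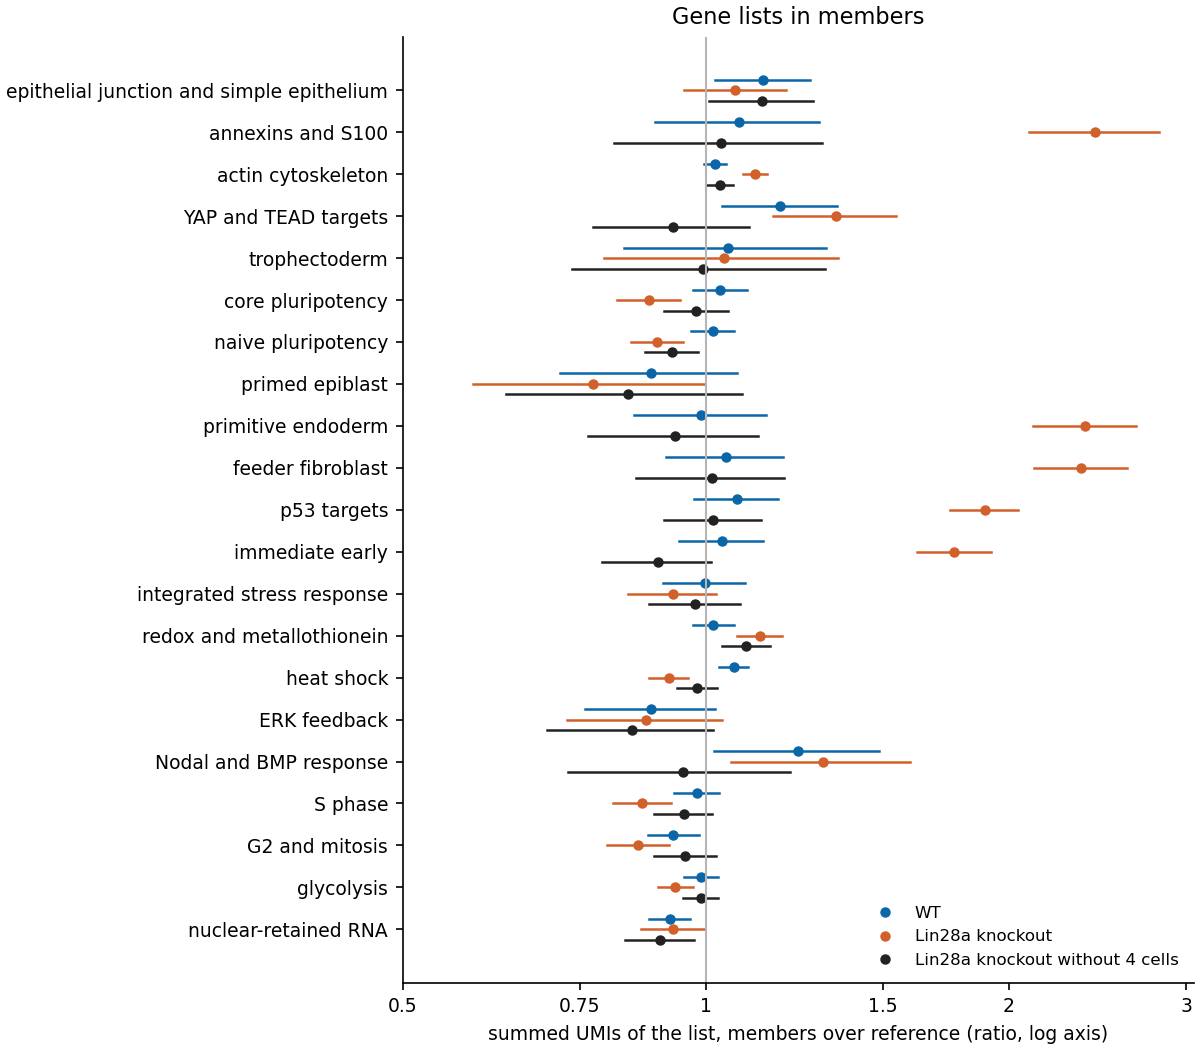
Summed UMIs of each gene list in members over reference (ratio, log axis, lines are 95% exact intervals from counts) in wild-type (blue), Lin28a knockout (orange) and the knockout without the 4 cells (black), for lists with at least 50 UMIs in the members of each library. The orange points of the annexin and S100, primitive endoderm, feeder fibroblast, p53 and immediate early lists lie at 1.76 to 2.44 and fall to between 0.896 and 1.03 without the 4 cells.

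Barcodes excluded for a mitochondrial share under 0.5% also held UMIs of the 4 genes. These 236 wild-type and 273 knockout barcodes held them at 38.4 CPM (71 UMIs) and 46.3 CPM (84 UMIs), against 22.0 and 35.5 CPM in the ES cells that passed. The ratio was 1.74 (1.31 to 2.3) in wild-type and 1.30 (1.01 to 1.68) in knockout. A single knockout barcode held 18 of those UMIs, and with it and the 4 knockout cells left out the knockout ratio was 1.92 (1.40 to 2.60). Krt8 had ratios of 1.60 (1.02 to 2.44) in wild-type and 1.54 (0.961 to 2.40) in knockout. Anxa2 had 2.66 (1.51 to 4.57; 22 UMIs) in wild-type and 1.54 (0.805 to 2.82; 16 UMIs) in knockout, or 1.97 (0.819 to 4.46; 10 UMIs) with both exclusions. S100a6 had 1.22 (0.627 to 2.21) in wild-type and 1.12 (0.756 to 1.61; 38 UMIs) in knockout, or 2.78 (1.61 to 4.76; 26 UMIs) with both exclusions. Both exclusions were made on UMIs of these same genes, after the values were seen. They took S100a6 from 128 to 35 UMIs in the knockout cells that passed, but only from 38 to 26 in the excluded barcodes. The higher knockout ratios of S100a6, Anxa2 and all 4 genes follow from this cut. They only show where the UMIs lay. The barcodes with a mitochondrial share under 0.5% were no members, since the rule leaves them out.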

How the data were processed

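Both single-cell libraries were analysed from the tables of UMI counts per gene and barcode that the authors deposited. The authors made these counts with the published inDrop pipeline. The study left out cells under 500 UMIs or above 20% mitochondrial expression. The submitters' processing notes name mm10 and Seurat 2.3.4, and the aligner is not given in the sources used here. Symbols came from GENCODE annotation (54079 of 54146 matched without version).

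The members and gene lists were chosen with earlier results of these data known. Barcodes were filtered and ranked as the report states, without replicates. The libraries held 12079546 and 10027710 UMIs in 4329 and 6060 barcodes, and barcodes are numbered, so those shared between libraries were not counted. Levels are summed UMIs per 1000000 of all UMIs outside the 4 rule genes. Intervals are exact: Poisson for levels, conditional on the total for ratios, Clopper-Pearson for shares, and cover counting error only. For a ratio at 0 UMIs the upper bound of its exact interval is given.

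Named genes were Lin28a, Pou5f1, Sox2, Nanog, the 15 with the largest lower ratio, the 8 with the smallest higher ratio, and up to 5 and 3 extremes per list. Vim and Acta2 in the high-count cells were chosen after values were seen. A gene that this rule names is not reported here. Scrublet (scanpy 1.11.5) marked 25 and 15 barcodes, 0 and 1 of them members, and these were kept. Alternatives tried were other member shares, depths, gene minimums, rule genes, scalings and exclusions. The ratio and its interval were also run on simulated counts with known folds. Those counts held only the counting error that the intervals assume, with no spread between cells and no choice of members. They therefore check the calculation and not the results. Sums, intervals and plots were made in Python 3.11.15 with pandas 2.3.3, scipy 1.17.1, matplotlib 3.10.9 and numpy 2.4.6.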

Additional observations from a re-analysis of the deposited data

Results flagged for a closer look

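The left-out Krt8 lay on opposite sides of 1 in the libraries, at 2.86 in wild-type cells (11 UMIs) and 0.849 in knockout cells (3 UMIs), and the difference was not tested, with 1 library per genotype. The sides were also opposite with the top 3% of cells (3.79 and 0.543), with no collagen UMI allowed (3.19 and 0.887), without cells marked by Scrublet (2.92 and 0.883) and without the 4 high-count knockout cells (2.86 and 0.800). They were not opposite with the top 10% of cells (1.55 and 1.0) or among cells of at least 5000 UMIs (3.32 and 1.03). In each of these settings the knockout interval included 1, as at 0.0136 to 3.13 with the top 3%. The settings share cells, and leaving out knockout cells cannot move the wild-type value, so they are no independent checks. The 4 genes were also present in barcodes that the choice left out for a mitochondrial share under 0.5%, at 38.4 CPM in wild-type and 46.3 CPM in knockout, against 22.0 and 35.5 CPM in the ES cells that passed. Without the barcode and the 4 knockout cells of more than 10 such UMIs, an exclusion chosen after seeing the data, the knockout values were 36.5 and 19.0 CPM. That exclusion was made on UMIs of the same 4 genes, so the values without them only show where the UMIs lay.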

How the results depend on the processing

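No paired analysis was possible because each genotype is 1 library. Limits: with 1 library and 1 clone per genotype there is no replicate error, members mostly rest on 1 UMI of the 4 genes, and the counts of genes past 1.5-fold move with how many cells and UMIs stand behind a ratio. The causes of the changes below were not tested, except where stated.

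The counts of genes higher and lower in both libraries (15 and 63) became 51 and 193 with the top 3% of cells as members, 1 and 6 with the top 10%, 4 and 25 with cells thinned to 2000 UMIs before ranking, and 42 and 107 with members ranked on 0.5 of the UMIs and measured on the rest. With a minimum of 100 UMIs per gene they were 70 and 207, with 500 they were 2 and 10, and at 2-fold they were 0 and 5. With no minimum and 0.5 added to each count they were 16833 and 779, where by construction the 0.5 weighs more in the smaller sum of the members. Genes higher in both numbered 7 among cells of at least 5000 UMIs, 8 with Krt8 and Krt18 alone, 2 with no collagen UMI allowed and 9 without the 4 high-count knockout cells, an exclusion chosen after seeing the data. Genes lower in both numbered 24 with S100a6 and Anxa2 alone. Of the 15 higher genes, 11 were shared with the top 3%, 0 with the top 10%, 2 with the thinned cells and 0 with the keratins alone. With no collagen UMI allowed 0 were shared, and without the 4 cells 5 were. Of the 63 lower genes, 0 were shared with the thinned cells.

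Lists past 1.5-fold (0 in wild-type and 6 in knockout) numbered 2 and 12 with the top 3%. In knockout they were 2 with the top 10%, 1 with the keratins alone, 0 with no collagen UMI and 1 without the 4 cells. In wild-type they were 1 with thinned cells, with S100a6 and Anxa2 alone and with no collagen UMI, and 2 with the split UMIs.

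The left-out S100a6 ratio in knockout (64.0) was 117 with the top 3%, 24.1 with the top 10% and 20.7 at 5000 UMIs, and fell below 1 with no collagen UMI (0.824) and without the 4 cells (0.693). That of Anxa2 (24.2) was 50.2, 8.73 and 11.5, and 0 under both exclusions. The 4-gene ratio of knockout over wild-type (1.61) was 1.17 at 5000 UMIs, 2.36 as a mean over cells, 0.853 with no collagen UMI and 0.863 without the 4 cells.

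Some ratios of genes called in both libraries crossed 1. With the top 3%, Lrpap1 was 0.896 in wild-type, and with the top 10% Taf4b was 1.03 in knockout. With thinned cells, Ttc28 was 0.938 and Taf4b 1.05 in wild-type, and in knockout Lrpap1 was 0.928, Pfas 1.05, Lncenc1 1.10, Dmxl1 1.17 and Nr0b1 1.16. With the keratins alone, Rpl31-ps14 was 0.987 and Ttc28 0.872 in wild-type, and in knockout Igf2r was 0.930, Mia3 0.871, Lrpap1 0.792 and Pfas 1.13. With the split UMIs, Igf2r was 0.910, Lrpap1 0.938 and Ppp1r18 0.929 in wild-type, and in knockout Igf2r was 0.630, Lrpap1 0.807, Fnta 0.393 and Pfas 1.21. In knockout, Ppp1r18 was 0.947 and Fos 0.764 with no collagen UMI, Fos was 0.984 as a mean over cells, and Myo1c was 0.882 and Fos 0.612 without the 4 cells. Of the other values of named genes, 1264 stayed within the counting interval of the reported ratio and 193 moved beyond it. Scrublet exclusion and both other scalings left the counts within 1.5 times.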
